A study of Drosophila melanogaster with 8 samples.

Results

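Of the 13008 regions that the authors tested for open chromatin in Drosophila melanogaster tissues, 922 were at least 1200 bp wide, and these broad regions are described here. They were chosen by width alone, from the start and end in the authors' deposited tables. The other 12086 regions are called narrower. How the bounds of the regions were set is not known here, and they may follow from peaks called in the same libraries. Of broad regions, 15.4% started at the start of a peak in the deposited lists and 17.7% ended at the end of one. Width, the number of peaks inside a region and the comparison of broad with narrower regions are therefore given as descriptions with no test. The regions just inside the limit were 1200 bp wide and lay nearest to CG9747, CG32811 and CG9095. Their log2 folds in wing against gland in the authors' deposited table were 1.08, 0.32 and 2.02. The regions just outside, at 1199 bp, lay nearest to Baldspot, trc and RhoL, with log2 folds of -0.04, -0.77 and 0.33 in the authors' deposited table.

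Open chromatin was assayed by FAIRE-seq, which recovers and sequences the DNA of crosslinked chromatin that carries few nucleosomes. The 8 libraries form 4 groups of 2. Wild type (WT, genotype +/+; +/+; +/+) gave a group each of wing, leg and salivary gland. The fourth group, called EcR-RNAi wing, is wing from yw/yw larvae that carry Vg-GAL4 together with UAS-Flp, the flip-out cassette Tub>>CD2>>GAL4, and UAS-GFP over the hairpin UAS-EcR-RNAi[104]. All were female wandering third-instar larvae at -6 h relative to puparium formation, raised at 25C, with at least 40 dissected tissues each. In EcR-RNAi wing the hairpin is driven first where the vg driver is active and then, through the flip-out cassette, in the descendants of those cells. No group carries the driver without the hairpin, so the hairpin, the driver and the yw stock cannot be told apart. The peak names carry OR for WT wing and leg, EcRmimic with a size range for gland, and EcRi for the RNAi wing. What EcRmimic stands for is not known here, so tissue and stock cannot be told apart between discs and gland. The labels do not say whether the 2 libraries of each group were made from different animals or crosses. The adjusted p therefore covers the spread seen between them, and that spread may be technical.

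Regulatory DNA loses nucleosomes where transcription factors bind, at promoters and at enhancers, and a broad open region often holds several such elements side by side. Wing and leg discs are sheets of dividing epithelial cells patterned by Hox genes, selector genes and secreted signals. The salivary gland is a secretory organ of large polytene cells. The ecdysone receptor EcR, with its partner Ultraspiracle, binds the steroid that starts metamorphosis and switches on a cascade of transcription factors.

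The authors' marks say for each region whether it overlaps a peak of each group. For wing and EcR-RNAi wing the mark equalled overlap with the 7500 peaks of highest q in the deposited list at all 13008 regions, and for leg at 13007. For gland it did so at 82.7%, and 678 marked regions, 3 of them broad, held no peak of the deposited gland list. Among broad regions, 88.6% carried the wing mark, 89.4% the leg mark, 90.3% the EcR-RNAi wing mark and 51.6% the gland mark. Among narrower regions each mark stood at 50.6% to 51.3%. The tissue labels were read against gene lists in the narrower regions of the authors' deposited table. Of 192 regions of wing regulators 27 were higher in wing and 7 in leg, and of 169 regions of leg regulators 5 were higher in wing and 38 in leg. Over all narrower regions tested 2.08% were higher in wing and 2.24% in leg. The lists were chosen with earlier results of these data known, and these counts bear on the wing and leg labels only. All libraries are labelled female, and 14 regions, 1 of them broad, lie on the Y chromosome. Whether the reads of these regions came from Y DNA was not tested, so they do not settle the label. Values are therefore also given without the Y where it is named.

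Broad regions had a median width of 1443.5 bp (interquartile range 1296 to 1702), and narrower regions 482 bp. Of the broad regions 526 were under 1500 bp, 303 were of 1500 bp or more but under 2000 bp, and 93 were of at least 2000 bp, of which 10 reached 3000 bp. They made up 7.09% of the regions, 18.6% of the bases and 20.6% of the summed mean normalized count. This count, the authors' average over the 8 libraries, had a median of 390.5 in broad regions (163.5 to 2793) and 112.6 in narrower ones. Per kb of region it was 266.4 (interquartile range 222.8 to 330.4) in broad and 230.4 (190.8 to 280.4) in narrower regions, so the count per base was only a little higher. The larger count came with a smaller error: the median standard error (SE) of the log2 fold in wing against leg was 0.149 in broad and 0.231 in narrower regions of the authors' deposited table.

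**Figure D1:**
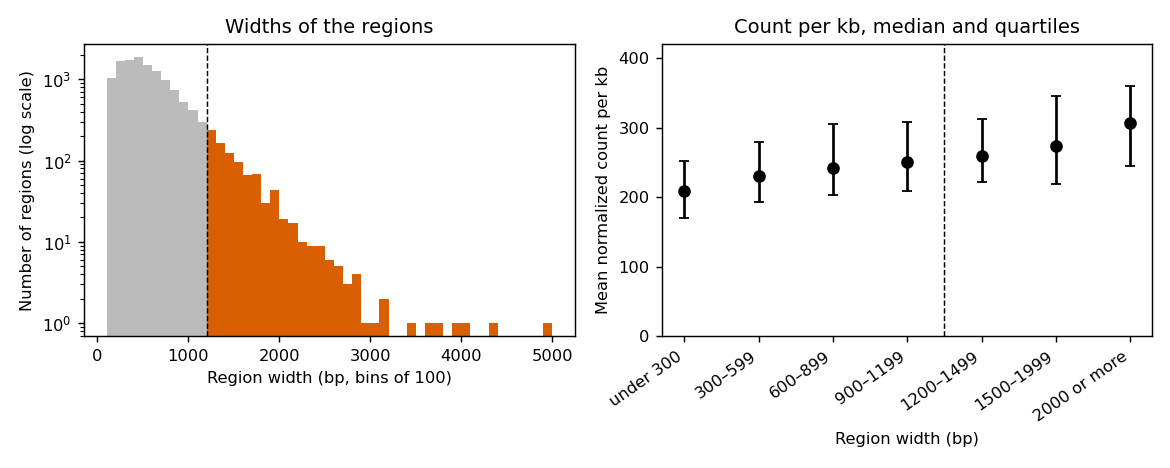
Left: number of regions by width in bins of 100 bp, on a log axis, with broad regions in orange and the limit of 1200 bp dashed. Right: mean normalized count per kb by width class, as medians (points) and quartiles (bars), which overlap between all neighbouring classes.

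Most broad regions held several disc peaks. Peaks of the WT wing list overlapped 908 of the 922 regions: 314 held 1 peak, 413 held 2, 148 held 3 and 33 held 4 or more, a mean of 1.87 ± 0.86 (SD, n = 922 regions). At least 2 peaks lay in 64.4% of broad regions for the wing list, 62.9% for leg, 56.9% for EcR-RNAi wing and 42.4% for gland. In narrower regions these shares were 8.84%, 8.93%, 7.41% and 11.0%. A longer stretch has more room for peaks, and per kb the broad regions held fewer: 1.20 against 1.77 for wing, 1.20 against 1.74 for leg, 1.12 against 1.69 for EcR-RNAi wing and 0.884 against 1.26 for gland.

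The gland list differed from the disc lists in how it filled these regions. No gland peak touched 386 broad regions (41.9%), whereas 94 held 4 or more. The peaks of a list covered a median of 71.9% of a broad region for wing, 69.9% for leg, 76.1% for EcR-RNAi wing and 14.2% for gland. A single peak spanned at least 80% of the region in 166, 171 and 227 regions for wing, leg and EcR-RNAi wing, and in 7 for gland. Neighbouring summits were a median of 587 bp apart in wing, 582 bp in leg, 580 bp in EcR-RNAi wing and 389 bp in gland. Gland peaks are also narrower in the whole list (median 152 bp, against 236, 230 and 274 bp in wing, leg and EcR-RNAi wing), and the size range in their name was not used elsewhere, so the part of library handling in this difference was not tested. The strongest peak in a broad region had a median fold enrichment, the authors' own value over local background, of 7.14 in wing, 8.30 in leg, 5.71 in gland and 5.80 in EcR-RNAi wing, where the strongest peak of narrower regions had 4.45, 4.51, 4.84 and 4.19. Where a region held several wing peaks, the second strongest had a median of 0.674 times the enrichment of the strongest.

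**Figure D2:**
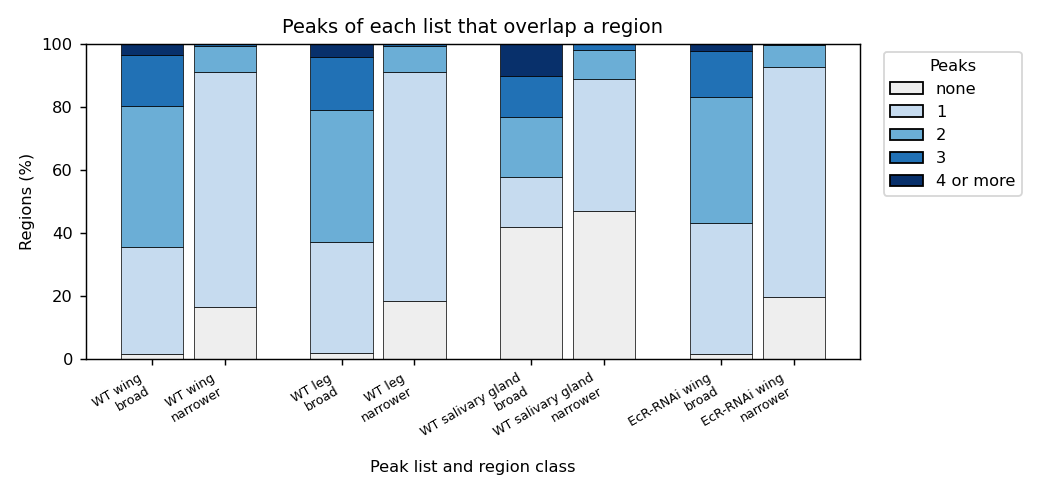
Share of regions (%) with no, 1, 2, 3, or 4 or more overlapping peaks of each deposited list, for the 922 broad and 12086 narrower regions. In the wing, leg and EcR-RNAi wing lists nearly every broad region holds a peak, and in the gland list 41.9% hold none.

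Broad regions were spread over all chromosome arms and lay at gene ends, inside genes and between genes, as narrower regions did. A gene end, start or stop since the gene table gives no strand, lay inside 380 broad regions (41.2%), and at least 2 gene ends lay inside 143 (15.5%). Of narrower regions 28.4% held a gene end. Per kb, broad regions held 0.376 gene ends and narrower ones 0.668. Counting ends within 500 bp of the region edge, 432 broad regions (46.9%) and 41.5% of narrower ones were near a gene end. Of the 542 broad regions with no gene end inside, 364 (39.5% of the 922) lay within a gene and 178 (19.3%) between genes. In narrower regions these shares were 51.3% and 20.3%. The nearest gene end was over 5 kb away for 29.2% of broad and 28.1% of narrower regions. By arm, 2R (210 regions), X (199) and 3R (237) had 8.48%, 8.27% and 7.68% of their regions in the broad class, and 3L (161) and 2L (113) had 5.81% and 5.09%. Another broad region lay within 10 kb of 336 broad regions (36.4%), and the matching share for narrower regions was not computed. A region of any width lay within 10 kb of 95.9% of broad and 94.4% of narrower regions. The 922 broad regions had 754 different nearest genes.

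The 10 widest regions ranged from 3014 to 4982 bp. Each held a peak of the wing, leg and EcR-RNAi wing lists, and 7 held a gland peak. The widest, on 2L at 12002952 to 12007933 (dm6), ends 220 bp from Rh5, which encodes a rhodopsin. It held 3 wing, 4 leg, 8 gland and 2 EcR-RNAi wing peaks, and the authors' mean normalized count was 2793. Group levels can be worked out from that count and the folds of the authors' deposited tables, taking the mean count as the plain mean of the 4 groups. The fold over its SE departs a little from the deposited statistic (ratios of 0.920 to 1.11 in wing against leg, 1st to 99th percentile of broad regions), so the folds appear moderated. Folds moderated toward 0 would place the groups closer together, by an amount not measured here. Such levels also carry no error of their own. For the Rh5 region they were 3378 in wing, 4031 in leg, 1489.5 in gland and 2273 in EcR-RNAi wing. The authors' deposited tables put wing above gland by a log2 fold of 1.18 here (SE 0.135, adjusted p 3.05e-17), and leg above gland by 1.44 (SE 0.135, adjusted p 4.4e-25).

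The second widest, 4301 bp on X at 2788994 to 2793294, covers an end of w, the eye pigment transporter gene. Its levels were 888 in wing, 3025 in leg, 731 in gland and 2153 in EcR-RNAi wing, so leg and EcR-RNAi wing were high and WT wing and gland low. In the authors' deposited tables it was lower in wing than in leg (table value -1.77 on the log2 scale, adjusted p 2.59e-06) and lower than in EcR-RNAi wing (table value -1.28, adjusted p 0.00254). The EcR-RNAi wing stock is yw and carries several transgenes, so at w the stock and the hairpin cannot be told apart. The SE of this region in wing against leg, 0.323, was over the 0.149 that is the median of broad regions, so the fold was less precise here. Which libraries differed cannot be read without values per library. The region of 3710 bp inside Bx, a LIM-only gene that limits Apterous activity in the wing, held 3 wing and 4 leg peaks and no gland peak. Its levels were 1374, 1003, 347 and 1186 in wing, leg, gland and EcR-RNAi wing. The region of 3123 bp inside tkv, the type I receptor for Dpp, likewise held no gland peak, with levels of 1377, 1783, 373 and 1108. In both, wing exceeded gland, and the authors' deposited table gives log2 folds of 1.99 and 1.89.

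The region of 3496 bp at CG13204 had levels of 1470.1 in wing, 1617 in leg, 596 in gland and 1118 in EcR-RNAi wing, and the authors' deposited table gives wing over gland a log2 fold of 1.30. Other members of the 10 widest differed less between groups. The region at fax (4058 bp), a gene of axon connection, had levels of 1327, 1410, 904 and 1227 in wing, leg, gland and EcR-RNAi wing, and that at CG2150 (3014 bp) 505, 534, 572 and 494. The regions at CNBP, hang and Tlk also passed no call in any comparison. At fax, CNBP, hang and Tlk, however, the fold in wing against gland had an adjusted p of 2.67e-08, 1.43e-09, 0.0029 and 2.53e-07 in the authors' deposited table, with log2 folds of 0.55, 0.76, 0.42 and 0.75 that stayed under the limit of 1. At CG2150 it was -0.18 (adjusted p 0.366). Throughout, a call needs an adjusted p below 0.05 together with a log2 fold of 1 or more in size.

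**Figure D3:**
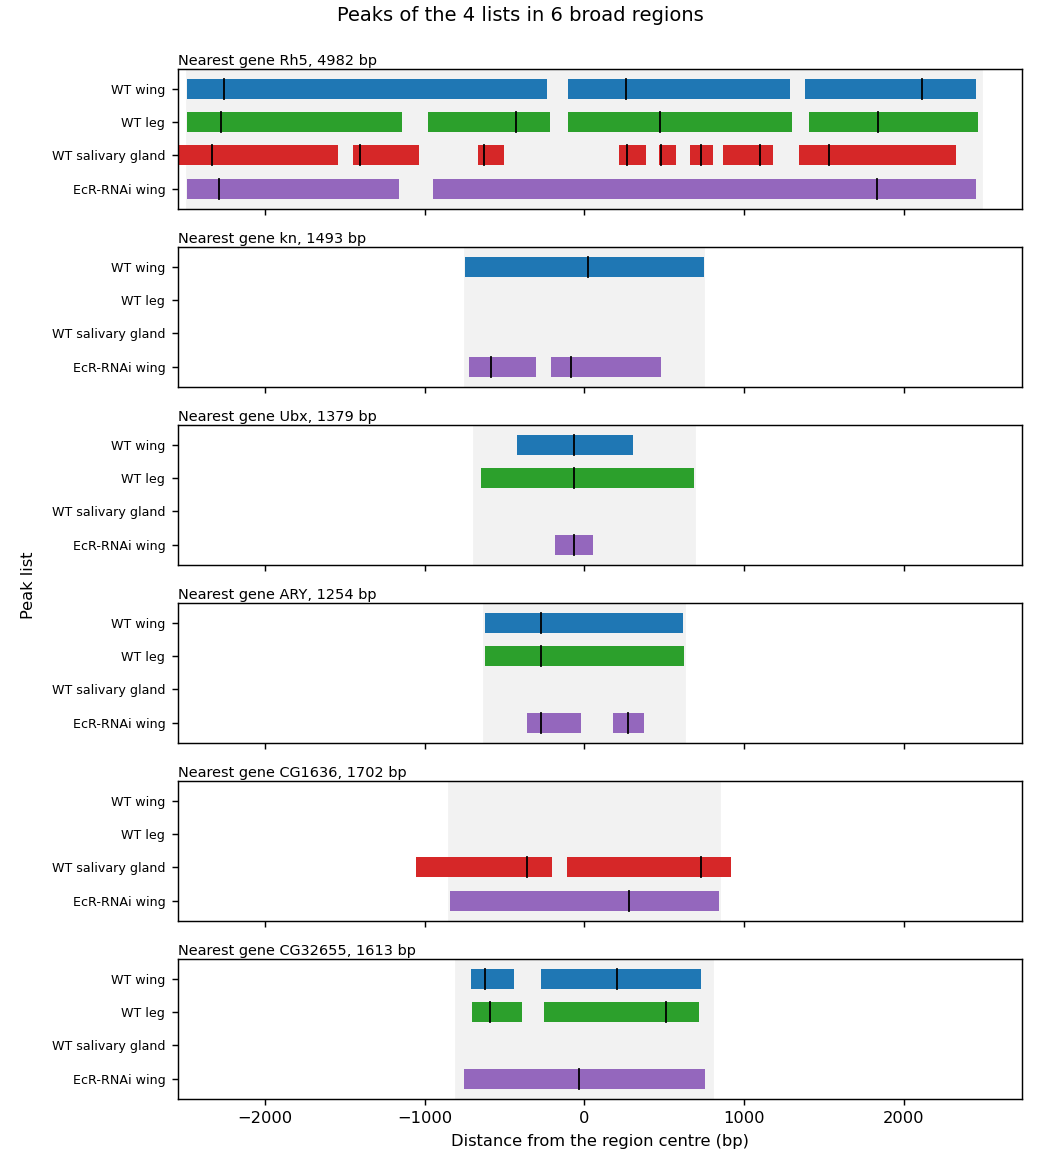
Peaks of the 4 deposited lists (bars, with the summit as a black line) in 6 broad regions, against the distance from the region centre in bp. The grey band is the region. The Rh5 region holds peaks of every list, the kn and Ubx regions differ between wing and leg, and the CG1636 region holds gland and EcR-RNAi wing peaks only.

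Calls between wing and leg were fewer than against gland. By the authors' deposited table, 14 were higher in wing and 16 in leg, 1.52% and 1.74% of the 922. Over all regions tested the shares were 2.04% and 2.21% (4.24% in either direction), and without the fold threshold 40 broad regions were higher in wing and 72 in leg. Among those that differed were regions of genes that pattern the appendages. The strongest on the wing side, 1493 bp on 2R at 14782549 to 14784041 inside kn, the transcription factor that patterns the central wing, had levels of 483 in wing, 121 in leg, 182 in gland and 324 in EcR-RNAi wing. The authors' deposited table gives wing against leg a log2 fold of 1.99 at kn (SE 0.187, adjusted p 3.9e-23). It held a wing peak and 2 EcR-RNAi wing peaks and none of leg or gland.

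Further regions on the wing side lay 3350 bp from slbo, a C/EBP transcription factor (log2 fold 1.67), 2417 bp from ND-20L (1.66), inside sowah (1.65) and 1227 bp from Dll (1.60), in the authors' deposited table. Dll specifies distal appendages, and its region had a level of 520 in wing, 171 in leg, 132 in gland and 329 in EcR-RNAi wing. Regions of the wing regulators mirr, vg and bs were also higher in wing, by log2 folds of 1.49, 1.35 and 1.30, and a region of vn, a ligand of the EGF receptor, by 1.05. On the leg side a pair of neighbouring regions inside Ubx, the Hox gene of the haltere and hind leg, had the largest and the third largest fold. The first, 1379 bp on 3R at 16685371 to 16686749, had levels of 173 in wing, 756 in leg, 94 in gland and 110 in EcR-RNAi wing, with a table value of -2.13 (SE 0.157, adjusted p 2.48e-37). The second, at 16686960 to 16688325, had levels of 129, 518, 106 and 113 and a table value of -2.01. A pair inside OdsH, a homeobox gene, ranked between and after them with table values of -2.05 and -1.83, and a region inside disco-r, a zinc-finger gene of leg development, had -1.42, all in the authors' deposited table. Leg stood apart at these regions, and wing, gland and EcR-RNAi wing were low. Of the 14 regions higher in wing than leg, 13 were also called higher in wing than gland. Of the 16 higher in leg, 15 were called higher in leg than gland. The comparisons with gland share libraries with these, so this is given as a count.

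Calls against gland were more numerous. By the authors' deposited tables, WT wing exceeded gland at 311 broad regions and gland exceeded wing at 20, which is 33.7% and 2.17%. Over all regions these shares were 21.1% and 12.7% (33.8% in either direction), and over narrower regions 20.2% and 13.5%. Leg exceeded gland at 340 broad regions and gland exceeded leg at 19, 36.9% and 2.06%, where all regions had 22.6% and 13.3% (35.8% in either direction). The share called in either direction was thus like that of all regions, and most broad regions called were on the disc side. The gland side moved with the setting: the 20 against wing became 29 centred on all regions, 10 with gene-end centring and 124 without the fold threshold, and the 19 against leg became 36, 9 and 128. The median log2 fold of broad regions was 0.59 for wing and 0.65 for leg, against 0.13 and 0.12 in narrower regions. Both comparisons use the same gland libraries: 274 broad regions (29.7%) were higher in both discs, and 18 (1.95%) in gland against both. In these dissected tissues, fewer cells with a region open and less opening per cell cannot be told apart, and DNA copy number in polytene gland cells was not measured.

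The shares followed width across the whole table. Width and these shares cannot be taken as independent, because regions may follow from peaks of the same libraries and gland peaks are the narrowest. Of regions under 300 bp 71.0% carried the gland mark and 16.4% the wing mark. Of those of at least 2000 bp 59.1% carried the gland mark and 92.5% the wing mark. From the narrowest class, under 300 bp, to the widest, at least 2000 bp, the authors' deposited table put wing above gland at 6.25%, 19.9%, 29.5%, 29.4%, 30.4%, 37.0% and 41.9% of regions. The share higher in gland was 34.2%, 10.6%, 4.10%, 2.01%, 2.28%, 1.98% and 2.15%. Most of the change thus lay below 900 bp, and the regions from 900 to 1199 bp had shares close to those of the narrowest broad class.

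**Figure D4:**
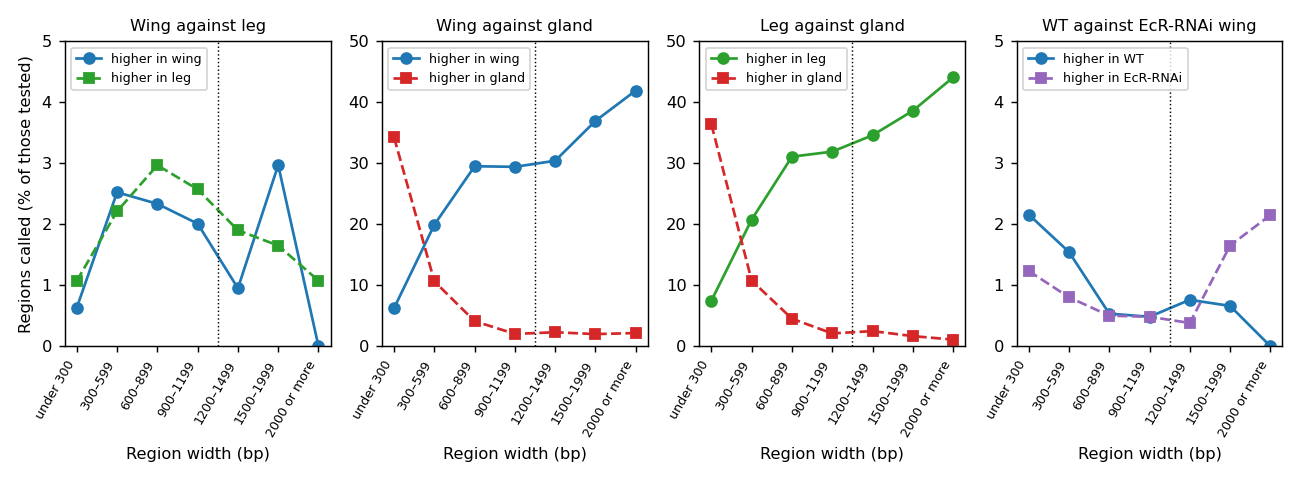
Share of regions called (%, by adjusted p and log2 fold in the authors' deposited tables) by width class in bp for the 4 comparisons, with the limit of 1200 bp dotted. The axes of the gland comparisons run to 50% and those of the other comparisons to 5%. In both gland comparisons the disc side rises with width and the gland side falls below 900 bp.

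Other measures moved with width, and their part in this difference was not tested. At like count per kb, in 4 equal classes of all regions from low to high, the share higher in wing than gland was 13.2%, 21.2%, 23.7% and 52.1% in broad regions and 12.4%, 14.3%, 17.6% and 37.8% in narrower ones. At like total count, in 4 equal classes of the broad regions, it was 16.0%, 27.8%, 32.6% and 58.4% in broad and 32.3%, 46.6%, 62.2% and 57.1% in narrower regions, the last from 21 narrower regions. Whether broad regions had the higher or the lower share thus depended on which count was held alike. Among regions that carried the mark of all 4 groups, 11.6% of 406 broad and 7.74% of 1808 narrower regions were higher in wing than gland, with medians of 0.21 and 0.23. Among those with the 3 disc marks and no gland mark the shares were 71.7% of 346 and 66.5% of 2181. A gland mark alone was carried by 20 broad and 3083 narrower regions, of which 13 and 1545 were higher in gland than wing. All values are from the authors' deposited table.

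The calls also differed with position within the broad class. Of 432 broad regions near a gene end 16.4% were higher in wing than gland, with a median log2 fold of 0.14, and of 490 away from gene ends 49.0%, with 0.97, in the authors' deposited table. In narrower regions these shares were 9.91% and 27.5%. Gland peaks come from the gland libraries that also enter the fold, so the next shares are linked by construction. Broad regions with no gland peak were called higher in wing in 64.0% of 386 cases, those with 1 in 22.8% of 145, those with 2 in 11.4% of 176 and those with at least 3 in 5.12% of 215. Gland peaks and gene ends went together: 19.4%, 53.1%, 64.8% and 77.2% of these classes lay near a gene end.

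The largest differences to gland are given first on the disc side. The Y region of 1254 bp, 284628 bp from the nearest gene end at ARY, had levels of 434 in wing, 497 in leg, 12.3 in gland and 215 in EcR-RNAi wing, and the authors' deposited table gives wing over gland a log2 fold of 5.14. All 14 Y regions were higher in wing than gland, and leaving out the broad one gives 310 of 921. A region inside Ten-a, a teneurin gene of cell contacts, on X at 12225588 to 12227200, had levels of 722, 756, 42.5 and 653 in wing, leg, gland and EcR-RNAi wing. The authors' deposited tables give it log2 folds over gland of 4.09 in wing (SE 0.178, adjusted p 3.54e-107) and 4.15 in leg. A region inside kirre, a cell adhesion gene of the immunoglobulin family with CG4116 the gene of the nearest end, had levels of 909, 1195, 72.2 and 694 and log2 folds of 3.65 and 4.05. A region 943 bp from CG9411 (3.22 in wing), one 17216 bp from Tollo, a Toll-family receptor gene (3.11 in wing), and one inside jing, a zinc-finger gene (3.33 in leg), followed. None of these regions held a gland peak.

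The gland side held few broad regions, and 13 of the 20 higher in gland than wing lay near a gene end. The largest fold was inside nAChRalpha3, an acetylcholine receptor subunit gene, with CG1636 the gene of the nearest end, on X at 8294170 to 8295871, with levels of 82.9 in wing, 90.6 in leg, 1165 in gland and 1813 in EcR-RNAi wing. Its table value was -3.81 for wing against gland (SE 0.174, adjusted p 1.22e-100) and -3.69 for leg against gland. Regions 7198 bp from gus, 155 bp from an end of Cyp28d2, a cytochrome P450 gene, and 59028 bp from SteXh:CG42398 had table values of -2.73, -2.60 and -2.51, and one inside CG11168 had -1.78. A region inside Actn and 5144 bp from usp, the partner gene of EcR, had levels of 197 in wing, 231 in leg, 518 in gland and 148 in EcR-RNAi wing, with -1.39. These are values of the authors' deposited table.

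WT and EcR-RNAi wing were compared next. By the authors' deposited table, 6 were higher in WT wing and 9 in EcR-RNAi wing, 0.651% and 0.976% of the 922, where all regions had 1.24% and 0.789% (2.03% in either direction). The balance depends on the call: without the fold threshold 147 were higher in WT wing and 74 in EcR-RNAi wing, and after a shift by the all-region median the counts were 3 and 11. The 6 regions higher in WT wing lay in or near FASN2, a fatty acid synthase gene, hebe, corto, a chromatin protein gene, Hip14, a palmitoyltransferase gene, pio, an apical matrix gene, and on the Y chromosome. Their log2 folds were 1.16, 1.11, 1.09, 1.07, 1.05 and 1.01. The region at hebe had levels of 345 in WT wing, 278 in leg, 403 in gland and 159 in EcR-RNAi wing, so EcR-RNAi wing alone was low. That at corto had an adjusted p of 0.0074 and an SE of 0.307 in the authors' deposited table.

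On the EcR-RNAi side the folds were larger. The nAChRalpha3 region had a table value of -4.45 (SE 0.174, adjusted p 2.68e-137), the SteXh:CG42398 region -4.29, the gus region -2.09 (SE 0.343), and the Cyp28d2 region -1.16 (SE 0.325, adjusted p 0.00733), in the authors' deposited table. These 4 regions were the ones also higher in gland than wing, and none held a wing or leg peak. The SteXh:CG42398 region had levels of 33.7 in wing, 38.6 in leg, 192 in gland and 659 in EcR-RNAi wing. The remaining 5 were at PGRP-LA (-1.45), a peptidoglycan recognition protein gene, CG11030 (-1.44), w (-1.28), Cralbp (-1.18) and ftz-f1 (-1.08, adjusted p 1.02e-07). At w the limit on the yw stock and its transgenes given above applies. The ftz-f1 gene, a nuclear receptor that gives tissues their competence to respond to ecdysone, had a region with levels of 228 in wing, 177 in leg, 220 in gland and 480 in EcR-RNAi wing. Its second broad region had 425, 409, 356 and 458 and no call.

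**Figure D5:**
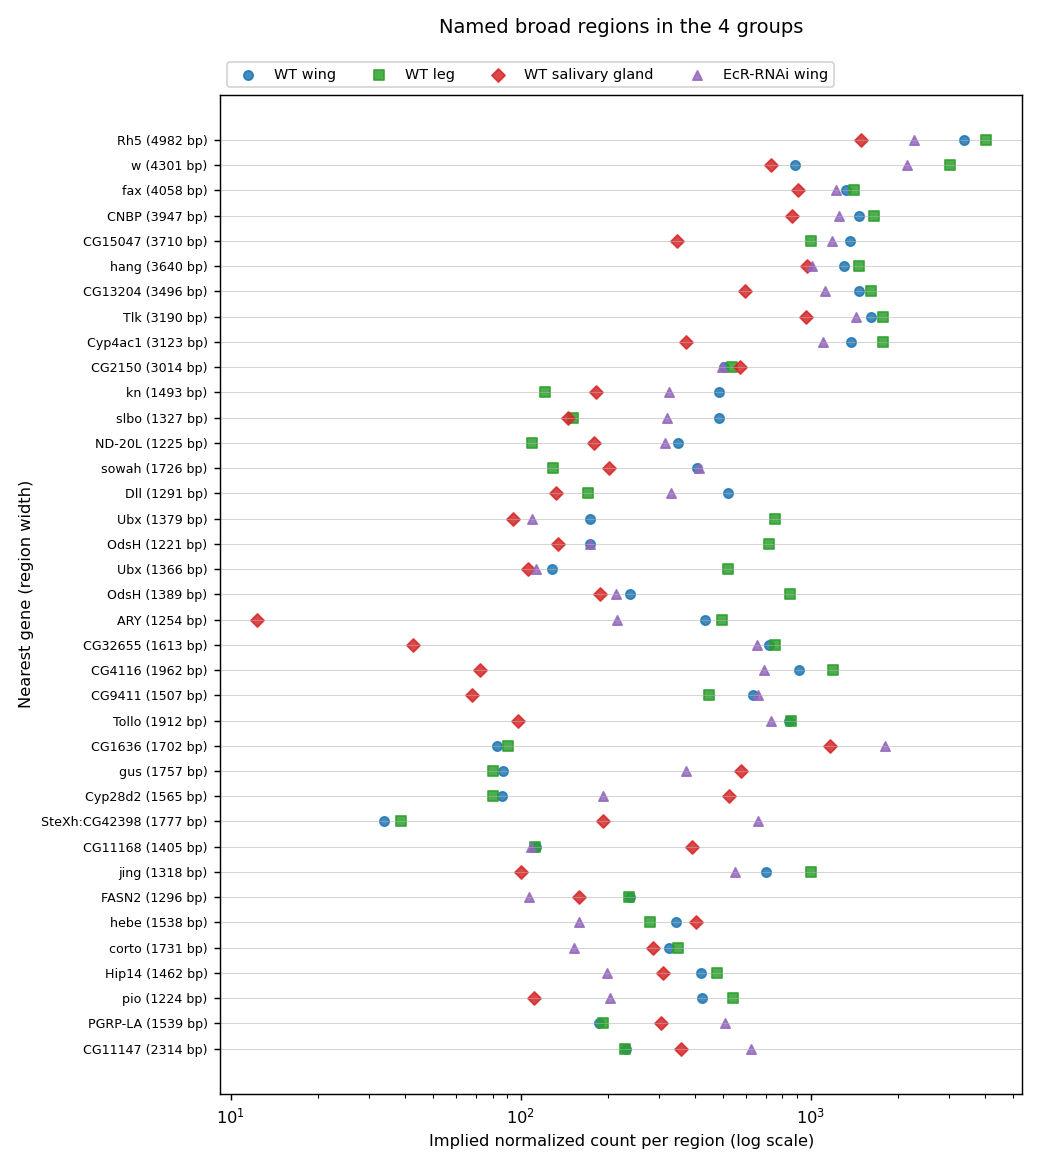
Levels of the named broad regions in the 4 groups (normalized count per region implied by the mean count and the folds of the authors' deposited tables, log axis), by nearest gene. Gland is the lowest group at the regions with the largest disc-over-gland folds (ARY, CG32655, CG4116, CG9411, Tollo and jing), leg is the lowest at kn, ND-20L and sowah, leg stands alone at Ubx and OdsH, and gland with EcR-RNAi wing is high at CG1636, gus, Cyp28d2 and SteXh:CG42398.

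Several genes were the nearest gene of many broad regions. In this and the next paragraph each region was counted for the gene whose end is nearest, and it need not lie inside that gene. The ecdysone-induced transcription factor gene br had 10 of its 28 regions in the broad class, spread over 77.2 kb on X from 1559938 to 1637127. In the authors' deposited tables both discs exceeded gland at 4 of these, with log2 folds of 1.38 to 2.32 for wing and 1.44 to 2.48 for leg, and the others were not called. The strongest br region, at 1573857 to 1575452, had levels of 856 in wing, 955 in leg, 172 in gland and 627 in EcR-RNAi wing. At 1616452 to 1617819 the levels were 460, 455, 446 and 438, so this br region was alike in the 4 groups. Another, at 1626482 to 1628060, had 409 in wing, 211 in leg, 402 in gland and 416 in EcR-RNAi wing. The authors' deposited table gives wing over leg a log2 fold of 0.95 (adjusted p 1.1e-07), just under the limit. No br region was called between WT and EcR-RNAi wing, although that at 1578073 to 1579385 had a log2 fold of 0.88 (adjusted p 3.83e-07).

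The homeobox gene hth, a Hox cofactor of proximal appendages, had 6 broad of 31 regions, and the authors' deposited tables put wing above gland at all 6 (log2 folds of 1.25 to 2.69) and leg at 5. The epithelial transcription factor gene grh had 5 of 18, of which 4 were higher in wing than gland. Another 7 genes had 4 broad regions each: CG42238, Hr4, Tet, Tgi, osa, psq and tara. All 4 of Tet were higher in wing than gland (1.16 to 1.94), 3 of psq, 3 of CG42238, 2 of osa, 2 of Tgi, 1 of Hr4 and 0 of tara (0.10 to 0.76, with 3 higher in wing at an unadjusted DESeq2 p under 0.05). A further 24 genes had 3 each, among them bi, brk, ds, fng, jing and Eip75B. The 3 regions of Eip75B, an ecdysone-induced nuclear receptor gene, were not called in any comparison, and 1 was higher in wing than gland at an unadjusted DESeq2 p under 0.05.

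Genes were also read by role, with each region counted for the gene whose end is nearest or the gene that holds its centre. The counts of each list stand against 7.09% of all regions being broad, and against 33.7% and 36.9% of broad regions being called higher in wing and leg over gland (21.1% and 22.6% of all regions). Signalling genes had 30 broad of 224 regions, and by the authors' deposited tables wing exceeded gland at 17 and leg at 20, with medians of 1.26 and 1.32. None was higher in gland, also at an unadjusted DESeq2 p under 0.05 (0 of 30). Among the ligands, the region of wg had levels of 645 in wing, 713 in leg, 171 in gland and 527 in EcR-RNAi wing, and that of dpp had 443, 406, 122 and 325. Both were higher in wing than gland, by log2 folds of 1.92 and 1.86. The 2 regions of ptc, the Hedgehog receptor, had 0.15 and 0.37, and those of N, the Notch receptor, 1.24 and 1.98. The list of Notch target genes, with E(spl) genes and Brd among them, had 6 broad of 18 regions, all 6 higher in wing than gland and 5 in leg. The region not called in leg was that of Brd, with log2 folds of 1.04 in wing and 0.94 in leg. Of the 12 narrower regions of this list, 6 were higher in wing than gland and 7 in leg. Growth control genes had 12 broad of 85, of which 10 were higher in wing and 11 in leg: the region of stg, the Cdc25 phosphatase of the cell cycle, had 789 in wing, 910 in leg, 212 in gland and 582 in EcR-RNAi wing.

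Wing regulators had 17 broad of 209 regions (8.13%, against 7.09% of all regions), of which 13 were higher in wing than gland and 10 in leg, and 4 were higher in wing than leg (kn, mirr, vg and bs). Of the 192 narrower regions of wing regulators, 95 were higher in wing than gland and 7 in gland. Against leg these counts were 71 higher in leg and 8 in gland. Leg regulators had 10 of 179, of which wing exceeded gland at 5 and leg at 4, 1 was higher in wing than leg (Dll) and 1 in leg (disco-r). The wing count fell to 3 once folds were shifted by the all-region median, and the leg count rose to 6 with gene-end centring. Proximal appendage genes (hth and tsh) had 8 of 42, all 8 higher in wing than gland and 6 in leg. Of the 34 narrower regions of these genes, 32 were also higher in wing than gland and 22 in leg. Hox genes had 5 broad of 81, 3 in Antp and 2 in Ubx, and the authors' deposited tables have all 5 higher in leg than in gland and 3, those of Antp, higher in wing. Of the 76 narrower Hox regions 57 were also higher in leg than gland. The ecdysone response genes had 34 of 259, of which 9 were higher in wing than gland, 1 was higher in gland (usp) and 1 was called against EcR-RNAi wing (ftz-f1). Leg exceeded gland at 9, and at 14 with gene-end centring. The wing count was 8 centred on all regions and 12 with gene-end centring, so no difference from the 33.7% of all broad regions is read from 9 in 34. Of the 225 narrower regions of this list, 58 were higher in wing than gland and 26 in gland. Chromatin regulators had 20 of 75, with 9 higher in wing than gland and 8 in leg.

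Housekeeping genes had 9 broad of 39 regions, and none was called in any comparison, and the authors' deposited tables gave medians of -0.09 (wing) and -0.13 (leg) against gland. At an unadjusted DESeq2 p under 0.05, 3 were higher in wing and 3 in gland. Once the folds were centred on the median of gene-end regions, the medians turned to 0.22 and 0.18, and 1 region was called higher in leg. Salivary gland genes had 4 broad of 60 regions, in CrebA, nvy and tna, of which 2 were called higher in wing than gland (CrebA 1.35, tna 1.31) and the same number higher in leg. Gland exceeded wing at 0 by the call and at 1, nvy, at an unadjusted DESeq2 p under 0.05, and the median was 0.74. Of their 56 narrower regions 18 were higher in gland than wing and 5 in wing. Of genes of other cells that the dissections could hold, 1 of 55 tracheal, 0 of 35 myoblast, 2 of 24 haemocyte and 3 of 14 neural gene regions were broad, where 7.09% of all regions were. The tracheal region was that of sima, where wing exceeded gland by 1.59 on the log2 scale, and the neural ones those of pros and futsch, all 3 higher in both discs. Proneural genes (1 of 28), temporal identity genes (1 of 45) and cell death genes (0 of 21) had at most 1 broad region each.

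In all, 514 broad regions (55.7%) were called in none of the 4 comparisons in the authors' deposited tables, and 56.0% of narrower ones. Regions with the most peaks were among them: that at CG5986 and Rox8 held 5 wing, 5 leg, 7 gland and 6 EcR-RNAi wing peaks, and had levels of 509, 491, 649 and 506. Those at CG32767, nocte and Actn with usp held 21, 20 and 19 peaks over the 4 lists, and all 3 cover gene ends. Motif content was not analysed here.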

How the data were processed

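FAIRE-seq reads of 8 libraries were processed on build dm6, per the submitters' processing notes, which name MACS2 2.1.2, DESeq2, R 3.5.2, Picard 2.2.4, bedtools 2.26, SAMtools 1.9 and Bowtie2 2.3.4.1. The sources used here do not give their order or settings. The authors deposited 1 peak list per group, from merged libraries by the peak names, with a score, a fold enrichment (a ratio to local background) and a −log10 q per peak. The authors deposited 4 comparison tables over one shared set of regions, which give the mean normalized count (a signal, averaged over libraries), the log2 fold and its SE, the statistic, and a p-value before and after adjustment, from DESeq2 per the submitters' processing notes. A positive log2 fold is higher in the first group named, and table values below 0 are higher in the second.

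From these, with Python 3.11.15 and pandas 2.3.3, regions of at least 1200 bp were selected, peaks overlapping by at least 1 bp were counted, gene ends were taken from a RefSeq gene table of Release 6 (13963 genes, no strand or exons), and group levels were computed from mean count and folds. Sums of folds across comparisons closed to within 1.2e-08 in broad regions. No count per library was held, so depth per library is unknown, nothing was refitted, and precision is that of the SEs. In wing against leg and wing against EcR-RNAi wing, 681 and 465 regions had no adjusted p, none of them broad, and were left out of the shares over all regions. Peak counting, implied levels and centring were tested on simulated data. The members, the 18 gene lists (249 of 257 genes found in the gene table) and the tests were chosen with earlier results of these data known. Named regions are the 10 widest, the 5 largest folds per comparison and direction, the 5 with most peaks, the 5 widest that were not called, those nearest the width limit, genes with at least 3 broad regions and list genes; Cralbp, and CG34347 in the closing section, were named after their values were seen. Alternatives covered width, fold and p thresholds, centring, count, marks, the Y and peak overlap.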

Additional observations from a re-analysis of the deposited data

Results flagged for a closer look

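At 2 broad regions wing and leg stood on opposite sides of gland. The kn region, on 2R at 14782549, was higher in wing than gland (log2 fold 1.41, adjusted p 3.85e-15) while leg was lower than gland (-0.58, adjusted p 0.00479), in the authors' deposited tables. The difference between wing and leg was 1.99 (adjusted p 3.9e-23). The sowah region, on 3L at 12558011, had 1.01 (adjusted p 2.43e-08) in wing and -0.63 (adjusted p 0.00183) in leg, with 1.65 between them (adjusted p 3.77e-16), by the authors' deposited tables. The leg fold stayed under the size limit of 1 at both. The comparisons share the gland libraries, and wing against leg, DESeq2's own test in the deposited table, is the test of the difference.
Regions at ND-20L (0.96 in wing and -0.71 in leg) and CG34347 (-0.47 and 0.54) also had opposite signs with adjusted p under 0.05 in both gland comparisons of the authors' deposited tables, with all 4 folds under 1 in size.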

How the results depend on the processing

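Of 106 values under an alternative, over 17 results, 68 stayed within a set distance of the reported value and 38 moved. For a share this distance was the 95% Wilson interval, which counts regions as if independent. For a median log2 fold it was the median SE of single regions, which is not the error of that median. Neither measures the spread between libraries, so they serve as yardsticks only. A change of sign was possible for the median log2 folds only, since a share has no sign, and 0 occurred. The limit on mean count kept all 922 broad regions and leaving out the Y kept 921, so these alternatives could hardly move a share. Without a fold threshold the shares of broad regions called rose to 4.34% (wing) and 7.81% (leg) for wing against leg, 60.6% and 13.4% (gland) for wing against gland, 62.4% and 13.9% (gland) for leg against gland, and 15.9% (WT) and 8.03% (EcR-RNAi) for WT against EcR-RNAi wing. Gland comparisons depended on centring, since the median log2 fold of all regions was 0.18 for wing and 0.17 for leg, and -0.31 in both for the 5447 regions near gene ends. Centred on all regions the disc shares were 28.7% and 31.9%, that of gland against leg 3.90%, and the medians 0.41 and 0.48. Centred on gene ends the disc shares were 45.6% and 48.3%, the gland shares 1.08% and 0.976%, and the medians 0.90 and 0.96, with p recomputed from fold and SE; without a shift this recomputation called the same regions as the deposited p, 311 and 20 for wing against gland. At 1500 bp or more, 38.1% were higher in wing than gland. Among the 406 broad regions marked in all 4 groups, chosen after seeing the data, 0% were higher in wing than leg (0 regions by DESeq2, 5 at an unadjusted p under 0.05), 0.246% in leg, in gland against wing, in gland against leg, and in either direction for EcR-RNAi wing, while wing exceeded gland at 11.6% and leg at 16.0%, with medians of 0.21 and 0.28. Counting only whole peaks, at least 2 lay in 61.2% (wing) and 35.9% (gland) of regions; with −log10 q of at least 5 in 55.5% (wing), 55.0% (leg), 29.2% (gland) and 48.3% (EcR-RNAi). Gene ends lay within 1000 bp of 50.5% and inside 41.2%. The cause of these moves was not tested beyond the construction of each alternative.

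No paired analysis was possible because the deposited tables hold no value per library, so the planned replicate block and leaving out each library were not run either. Depth per library is unknown.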
